A study of Mus musculus with 24 samples.

Results

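The transcriptome of wild-type mouse skin at E18.5, shortly before birth, is described here from the 8 libraries labelled WT, out of 24 in the series. The libraries were chosen by their genotype label alone. They were summed by the number that opens each library title to 5 columns, called WT 34, WT 35, WT 38, WT 41 and WT 42. WT 34 and WT 42 held 1 library each and the other columns held 2. In the WT animals the Dsg1 cluster, whose genes code for the adhesion protein desmoglein, was not deleted. The other groups, 8 libraries each, were HET, with the deletion on 1 chromosome, and KO, with it on both, and the deleted line came from 1 founder. All animals were on a C57BL/6 background, and dorsal skin was flash frozen and sequenced after poly(A) selection with a directional kit. The labels do not say what the title number stands for, so a column is called a column and not an embryo.

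Skin at this stage is a layered organ close to birth. Basal keratinocytes divide on the basement membrane, move up through the spinous and granular layers and end as the dead, cross-linked cornified envelope that seals the body surface. Below lie a collagen-rich dermis with growing hair follicles, vessels and nerves, a fat layer and a sheet of skeletal muscle that moves the skin, so that RNA from a whole piece of skin is a mixture of all of these.

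The WT libraries held 9654357 to 19983730 counts, and the 5 columns held 19462843 (WT 42) to 33681853 (WT 35). Between 14571 and 14729 genes reached 1 CPM (the usual scale of counts relative to the total, here adjusted by the TMM method) in a column, and 1910 to 2092 reached 100 CPM. The deleted genes matched the labels. Dsg1a, Dsg1b and Dsg1c summed to 717 to 939 CPM in the WT columns and 371 to 484 CPM in the HET columns. In the KO columns the sum was at most 0.912 CPM. Dsg1a and Dsg1b are cadherins of the differentiated layers, while Dsg1c added at most 0.655 CPM in a WT column. The 2 libraries of WT 38 differed by 1.86 times and those of WT 41 by 1.63 times the counting error (chi-square per degree of freedom), against 1.59 to 1.8 for the repeated numbers of the other genotypes. Those of WT 35 differed by 15.6 times, as much as libraries of different numbers did (9.28 to 63.7). Xist, the RNA that coats the inactive X chromosome, was at 0.263 CPM in one library of WT 35 (title format 1, without a prefix) and at 564 CPM in the other (title format 2, with a prefix), and the summed Y-linked genes stood at 324 and 0.154 CPM. The 2 libraries of this number therefore went against each other, and they were 2 separate levels in the main test across genes, 6 WT levels in all. The shares and the comparison with other genotypes used WT 35 as 1 summed column. Values of WT 35 below are sums over both unless the library is named.

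The counts were led by the keratins of the suprabasal epidermis. Krt10 held 3.31% ± 0.375 (SD, n = 5 columns) of all counts and its partner Krt1 held 2.50% ± 0.339. Krt10 and Krt1 form the keratin filaments of the spinous and granular layers, and they ranked first and second in every column. Krt10 stood at 26820, 30120, 33400, 38490 and 34220 CPM in WT 34, 35, 38, 41 and 42. Krt1 stood at 19890, 22170, 24710, 29700 and 26890 CPM in the same order. Both were lowest in WT 34 and highest in WT 41, 1.44-fold and 1.49-fold apart. The sequence before the start of Krt10, the gene with the most counts, and that of Lor, a leading cornified envelope gene, are shown here as the reference has them (RefSeq, GRCm38.p6, the 250 bases before the transcript start, 5′ to 3′ on the strand of the gene). Capitals mark matches on either strand to 4 motifs. The TATA box was searched as TATAAA. The motif of GATA factors was searched as AGATAA. For the AP-1 factors the letters were TGACTCA, and for the E-box of myogenic and other factors they were CAGCTG. None of these motifs contains another.
Krt10, chr11:99389365-99389614, minus strand: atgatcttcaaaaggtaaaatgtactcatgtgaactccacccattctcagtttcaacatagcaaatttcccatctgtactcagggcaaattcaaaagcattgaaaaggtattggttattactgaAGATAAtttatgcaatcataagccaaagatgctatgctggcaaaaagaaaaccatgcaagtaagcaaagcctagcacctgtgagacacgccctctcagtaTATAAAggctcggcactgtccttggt
Lor, chr3:92083143-92083392, minus strand: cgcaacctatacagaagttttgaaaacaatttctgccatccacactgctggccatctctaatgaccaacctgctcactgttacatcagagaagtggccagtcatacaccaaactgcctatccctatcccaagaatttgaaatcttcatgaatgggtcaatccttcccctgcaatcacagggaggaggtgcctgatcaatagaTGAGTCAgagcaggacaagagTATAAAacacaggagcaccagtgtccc

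The Krt10 stretch holds TATAAA 26 bases before the start and AGATAA 126 bases before it. The Lor stretch holds TATAAA 27 bases and TGACTCA 48 bases before the start. Of 27025 genes with such a sequence, 13% held TATAAA, 12.8% CAGCTG, 10.3% AGATAA and 4.43% TGACTCA. Among the 51 genes of 68 in the epidermal lists that could be matched, 23.5% held TATAAA and 9.8% TGACTCA. These are matches of letters in a window and were not tested.

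The next ranks were held by H19, an imprinted long non-coding RNA of fetal tissue, with 1.24% ± 0.183 of counts, and by the fibrillar collagens Col3a1 (1.23% ± 0.145), Col1a1 (0.71% ± 0.211) and Col1a2 (0.672% ± 0.148). Acta1, the actin of skeletal muscle, held 0.575% ± 0.156. Stfa3, a member of the stefin A protease inhibitors, held 0.552% ± 0.175, and Lor, the main protein of the cornified envelope, 0.534% ± 0.11. Reads of Stfa3 can be shared with its near copies Stfa1, Stfa2 and Stfa2l1, so that the split among them is uncertain.

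The remaining genes of the first 20 ranks came from the same tissues and from housekeeping functions. The mitochondrial transcripts mt-Cytb, mt-Co1 and mt-Nd1 code for subunits of the respiratory chain. Asprv1, a protease that cuts filaggrin, Hrnr, a filaggrin relative, and Calm4, a calcium-binding protein of differentiated keratinocytes, belong to the upper epidermis. Dmkn (dermokine) is secreted by spinous cells, Krt5 marks basal keratinocytes, Sparc is a matrix glycoprotein, Eef2 is a translation factor and Myh8 is the perinatal myosin heavy chain. The 20 genes together held 13.81%, 14.96%, 15.23%, 16.14% and 14.98% of counts, 15.02% ± 0.829 on average. WT 34 was lowest and WT 41 highest.

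**Figure D1:**
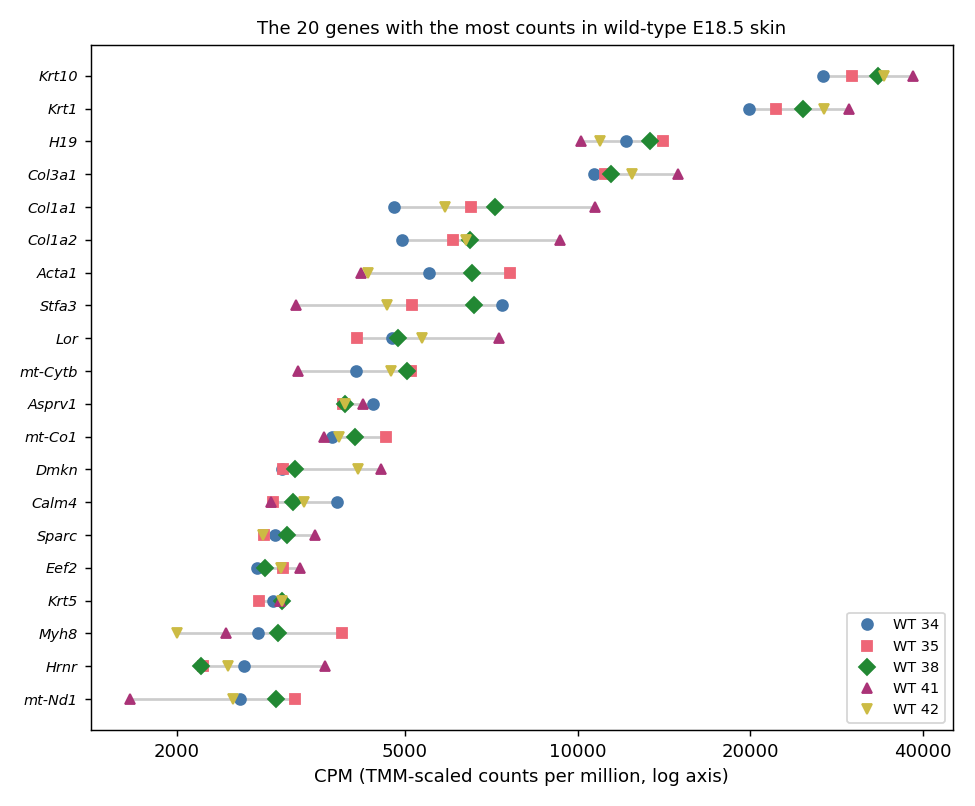
CPM (log axis) of the 20 genes with the most counts, 1 point for each of the 5 WT columns and a grey line over their range. Krt10 spans 26820 to 38490 CPM and Krt5 only 2780 to 3057 CPM, while Stfa3 spans 3234 to 7392 CPM.

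Long transcripts collect more reads, so a level per length ranks genes differently. As counts per kilobase of exon, scaled in each column to a fixed sum as TPM are, Krt10 had the highest mean (47670 ± 7327, SD, n = 5). Stfa3 came next (40190 ± 11230), then Krt1 (17280 ± 3030), H19 (15180 ± 1942), mt-Cytb (11970 ± 2032) and Acta1 (11300 ± 2920). Calm4 (10860 ± 1011), Mir6236 (10330 ± 2122), Lor (9166 ± 2287) and the beta-globin gene Hbb-bs (8464 ± 3456) completed the first 10. On this scale Krt10 and Stfa3 overlapped within mean ± SD, and so did Krt1 and H19 and the genes from mt-Cytb to Hbb-bs. H19 also overlapped mt-Cytb and Acta1. The order among genes that overlap is not settled. Mir6236 is annotated as a short RNA of 123 bases, and its level per length rests on 411 ± 78.2 CPM. By length-scaled rank, 12 of the 20 genes were shared with the ranking by counts, and long genes such as Col3a1, Myh8 and Hrnr left it.

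The share of counts held by a list of marker genes was taken as a measure of each tissue layer. It is not a share of cells: in a bulk sample fewer cells of a type and less RNA per cell cannot be told apart. The 4 epidermal lists (68 genes) held 9.65%, 9.76%, 10.4%, 12% and 11.2% of counts in WT 34, 35, 38, 41 and 42, a mean of 10.6% ± 1.01. The dermis list held 3.75% ± 0.592, skeletal muscle 2.46% ± 0.534, red blood cells 0.356% ± 0.138 and fat 0.14% ± 0.0741. Together these 5 compartments accounted for 17.3% ± 1.26 of counts, and all 27 lists for 19.8% ± 1.1. The exact 95% binomial intervals of these shares were narrow, at most 1.63% of the share to either side, and they cover counting error only. In the 5 libraries of title format 2 the means were 10.6%, 3.62%, 2.54%, 0.361% and 0.142% for epidermis, dermis, muscle, red blood cells and fat. In the 3 of format 1 they were 10.6%, 4.28%, 2.4%, 0.397% and 0.157%. Format 1 covers only WT 35, 38 and 41, so the means of the formats are over different columns. Measured per length, the epidermis share was 14.7%, the dermis share 1.49%, the muscle share 3.62% and the red blood cell share 1.4%, so that muscle then stood above dermis.

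**Figure D2:**
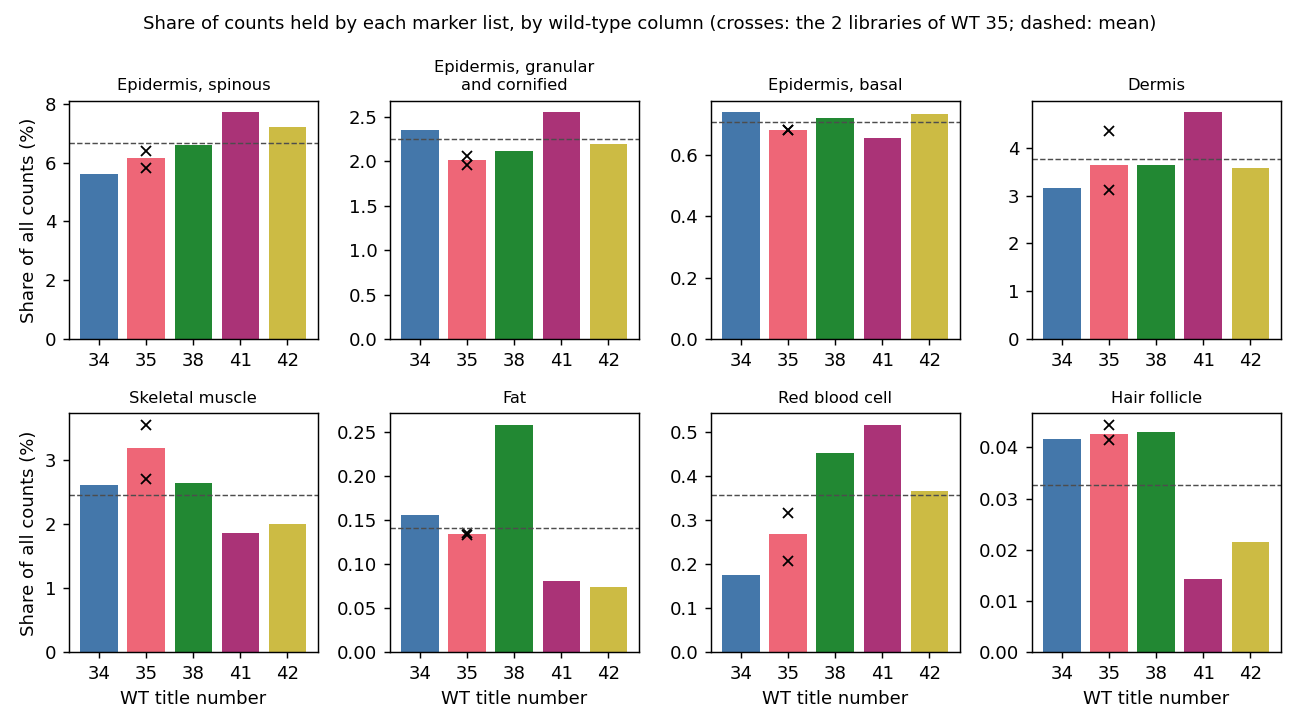
Share of all counts (%, y axis from 0) held by 8 marker lists in each WT column (x axis), with the mean over columns dashed and the 2 libraries of WT 35 as crosses. The basal share runs from 0.655% to 0.739%, while the fat share runs from 0.0742% in WT 42 to 0.258% in WT 38 and the hair follicle share from 0.0143% in WT 41 to 0.0429% in WT 38.

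Which genes differed among the WT levels was tested with the edgeR quasi-likelihood test, in which the error came from libraries that share a title number. Of 16034 genes tested, 1845 (11.5%) were called, meaning a Benjamini-Hochberg adjusted p of at most 0.1 and a highest level at least 2 times the lowest. With no limit on fold, 12102 genes (75.5%) passed, so most genes differed between levels by more than the error of repeated libraries. The fold limit therefore set the count. The median gene had a fitted range of 0.52 on the log2 scale. A call shows a difference between these levels and not its size in other animals. It can rest on the split of WT 35. Tnnt1, for example, was called with summed columns only 1.63-fold apart, and its WT 35 libraries stood at 98.4 and 170 CPM. WT 41 was the highest column for 33.4% and the lowest for 31.5% of all genes tested, and without it 954 genes were called. The called genes were mainly of low level: 820 of 2568 genes between 1 and 5 CPM were called, against 93 of 1969 genes at 100 CPM or more.

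The lists differed widely in their share of called genes. All 8 tested genes of the liver list were called, as were 13 of 15 fat genes, 15 of 18 red blood cell genes, 12 of 16 hair follicle genes and 21 of 32 muscle genes. Fewer were called among granular and cornified (9 of 36), dermis (3 of 24), spinous (1 of 11) and all-layer epidermal genes (1 of 9). None of 8 basal genes was called by edgeR or by DESeq2, although all 8 passed the adjusted p without the fold limit. These counts are to be read against the 11.5% of all genes, a share that itself depended on level. It was 31.9% at 1 to 5 CPM, 9.77% at 5 to 20 CPM, 3.18% at 20 to 100 CPM and 4.72% at 100 CPM or more. The lists were not matched for level, so lists of scarce and of abundant genes cannot be compared by this count alone.

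**Figure D3:**
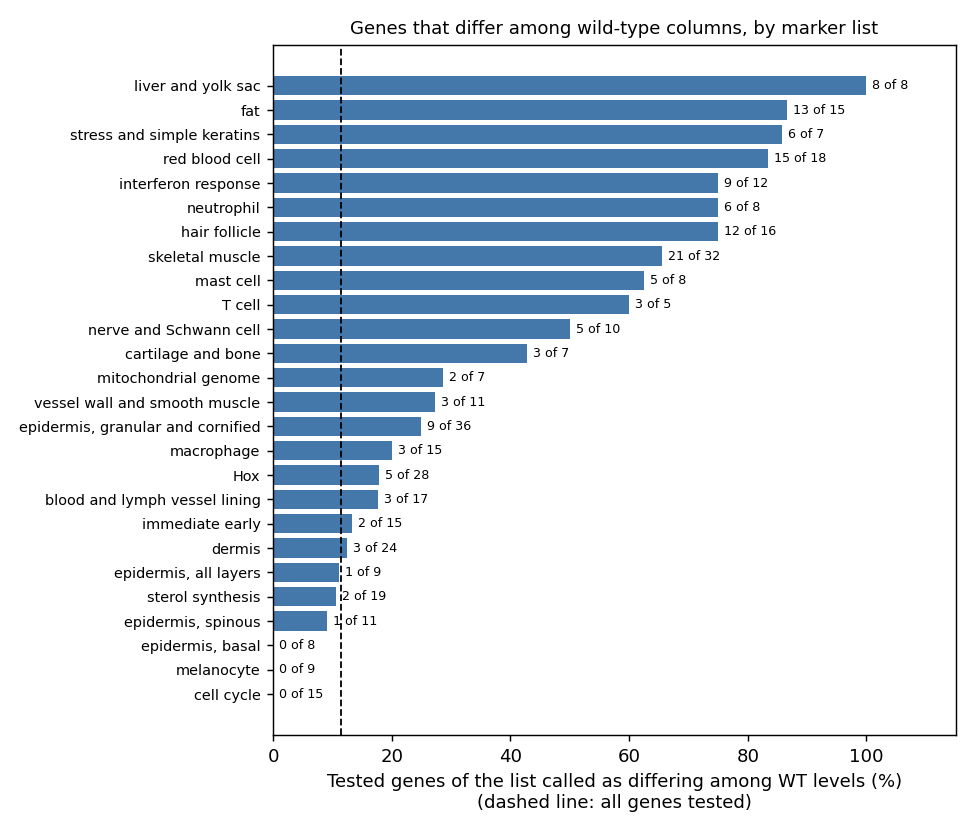
Percent of the tested genes of each marker list that were called as differing among WT levels (bars from 0, with the counts beside them); the dashed line is the 11.5% of all genes tested. Fat (13 of 15) and red blood cell (15 of 18) genes lie far above the line, and basal epidermis (0 of 8) and cell cycle (0 of 15) genes at 0.

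The basal list varied less than the other epidermal lists in its share of counts, 1.13-fold between columns. Its 8 genes held 0.739%, 0.68%, 0.72%, 0.655% and 0.733% of counts, and Krt5, Krt14 and Krt15 made up 90.6% of the list. Gene by gene the list was not the most even. Its median log2 range was 0.55, against 0.49 for all-layer genes, 0.58 for spinous genes and 0.52 for all genes tested. Krt5, the keratin of dividing keratinocytes, stood at 2939, 2780, 3057, 3025 and 3057 CPM, a 1.1-fold range. Its partner Krt14 stood at 2534, 2292, 2684, 1829 and 2609 CPM and was lowest in WT 41, where Krt5 was not. Col17a1, a hemidesmosome collagen, stood at 177, 200, 211, 338 and 218 CPM and was highest in WT 41. Itgb4 was highest there too, at 38.6, 47.5, 51.1, 78.5 and 46.9 CPM, with a log2 range of 0.97. WT 41 was the highest column for 5 of the 8 genes, against 33.4% of all genes tested. Trp63, the master transcription factor of stratified epithelia, stood at 189 ± 28.8 CPM.

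Among genes of all epidermal layers, Dsp (desmoplakin, which ties desmosomes to keratin) was called (adjusted p = 2.01e-237, edgeR). It stood at 1311, 1468, 1451, 2736 and 1862 CPM, highest in WT 41, and its log2 range of 1.04 was near the limit. The call was lost without WT 34, without WT 41 or with scaling by total counts alone. Its binding partner Pkp1 (plakophilin) stood at 1173, 1326, 1393, 2024 and 1703 CPM, in nearly the same order of columns, and was not called. Perp, a tetraspan desmosome protein, held between 2349 and 2788 CPM.

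The spinous list held 5.61%, 6.14%, 6.59%, 7.72% and 7.19% of counts, most of them from Krt10 and Krt1. For 10 of its 11 genes WT 41 was the highest column, against 33.4% of all genes tested. Krt77, a type II keratin of suprabasal cells and of sweat ducts, was the only called member (adjusted p = 1.36e-232, edgeR). It stood at 28.9, 29.7, 38.5, 283 and 86.6 CPM. WT 41 was far above WT 42, and WT 42 was above the remaining columns. Without WT 41 its log2 range fell from 3.76 to 2.06, and the gene was still called. Dsc1, the desmosomal cadherin paired with Dsg1, stood at 658, 864, 879, 1156 and 1249 CPM and Dmkn at 3053, 3065, 3221, 4536 and 4138 CPM. Both were also higher in WT 41 and WT 42 than in the other columns, and neither was called.

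The granular and cornified list held 2.35%, 2.01%, 2.12%, 2.55% and 2.2% of counts. Lor stood at 4741, 4120, 4857, 7279 and 5360 CPM and Flg, the filaggrin precursor that bundles keratin, at 1273, 935, 1034, 1521 and 1053 CPM. Both were highest in WT 41. The late cornified envelope genes Lce1e, Lce1g, Lce1h, Lce1i, Lce1j, Lce1k and Lce1l were 7 of the 9 called members and went the other way. Lce1i stood at 184, 134, 147, 89.2 and 105 CPM, and Lce1j at 19.4, 13.9, 16.1, 3.77 and 5.19 CPM. All 7 were highest in WT 34, and WT 41 and WT 42 held their 2 lowest values. Lce1a1, Lce1a2, Lce1b, Lce1c, Lce1d and Lce1f, which were not called, were also lowest in WT 41 and WT 42, Lce1c only 1.17-fold. Lce1m, the most abundant Lce gene of the list, did not follow. It stood at 1780, 1423, 1421, 1642 and 1364 CPM, second highest in WT 41, and was not called. Reads of these near copies can be split by the counting, so single members are uncertain.

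The other called members were Rptn (repetin), at 18.8, 19, 15.2, 6.12 and 4.94 CPM, and Alox12b, the lipoxygenase of the lipid barrier, at 173, 193, 204, 382 and 290 CPM. Rptn was low and Alox12b high in WT 41 and WT 42. Without WT 41, 4 of the 36 tested genes of this list were called. Ivl (involucrin) moved little, from 485 to 576 CPM.

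Keratins of stress and of simple epithelia were mostly scarce. Krt17, a keratin of appendages and wounded skin, made up 94.9% of this list and stood at 808, 756, 819, 573 and 733 CPM. The other 6 were called, but 3 without WT 42 and 4 without WT 38. Of all genes tested 11.5% were called, and 31.9% of those at 1 to 5 CPM. Krt16 reached 37.8 CPM in WT 38 against 15.5 to 25.3 CPM elsewhere. Krt8, Krt18 and Krt19, keratins of simple epithelia and Merkel cells, were highest in WT 42, Krt19 at 6.4 CPM against 1.92 to 2.94 CPM elsewhere.

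Most hair follicle transcripts, though not all, fell into high and low columns. The list held 0.0416%, 0.0427%, 0.0429%, 0.0143% and 0.0215% of counts, a 3.01-fold range, with WT 41 lowest and WT 42 next. WT 41 was the lowest column for 13 of 16 tested genes, against 31.5% of all genes tested. Krt71 and Krt25 are partner keratins of the inner root sheath, the layer that moulds the growing hair. Krt71 stood at 77.7, 92.7, 96.6, 11.5 and 29.7 CPM and Krt25 at 55.2, 55.2, 54.9, 9.09 and 21.6 CPM. In both, WT 34, 35 and 38 lay close together and WT 42 lay between them and WT 41. Both were called (adjusted p = 2.27e-157 and 1.29e-115, edgeR) and the libraries of WT 35 lay close together, with Krt71 at 98.4 and 88.9 CPM. The sequences before these genes, which moved together, are given in the same form as above.
Krt71, chr15:101743098-101743347, minus strand: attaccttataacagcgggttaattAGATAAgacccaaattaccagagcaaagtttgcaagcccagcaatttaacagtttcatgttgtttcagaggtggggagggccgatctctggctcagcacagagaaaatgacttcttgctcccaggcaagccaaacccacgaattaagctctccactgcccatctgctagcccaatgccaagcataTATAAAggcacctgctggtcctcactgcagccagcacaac
Krt25, chr11:99322952-99323201, minus strand: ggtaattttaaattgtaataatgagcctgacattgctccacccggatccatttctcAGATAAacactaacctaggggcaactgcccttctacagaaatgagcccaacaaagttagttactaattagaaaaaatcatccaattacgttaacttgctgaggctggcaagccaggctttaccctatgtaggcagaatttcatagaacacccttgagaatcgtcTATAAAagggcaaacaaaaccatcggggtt

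Krt71 holds TATAAA 40 bases and AGATAA 225 bases before the start, and Krt25 holds them 30 and 194 bases before it. Among the 14 of 22 hair follicle genes with a reference sequence, 9 (64.3%) held TATAAA and 5 (35.7%) AGATAA, against 13% and 10.3% of all genes.

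The same order of columns held for the other inner root sheath keratins. Krt27 stood at 33.1, 31.2, 28.2, 4.47 and 12.2 CPM, Krt28 at 45.1, 40.4, 42.3, 9.42 and 22.4 CPM and Krt73 at 37.6, 41.3, 50.4, 10.7 and 25 CPM. Krt35, a keratin of the early hair shaft, stood at 22.9, 23.7, 25.9, 5.02 and 12.8 CPM, and Msx2, a transcription factor of the hair matrix, at 11.9, 10.4, 10.2, 4.84 and 7.36 CPM. Tchh (trichohyalin), which hardens the inner root sheath, changed less, at 46.2, 48.1, 45.5, 35.1 and 23 CPM, and was lowest in WT 42. Without WT 41, 9 of 18 tested genes were called, and the log2 range of Krt71 was 1.72 in place of 3.09. Krt31, a hair shaft keratin, was at or below 0.366 CPM in every column. Some regulators of the list did not follow this order or were not called. Shh was even, at 31.8, 29.2, 30, 30 and 29.1 CPM. Foxn1 was highest in WT 41, at 7.68, 9.22, 10.1, 11.5 and 9.68 CPM. Hoxc13 was lowest in WT 41, at 9.32, 9.53, 10, 5.9 and 6.8 CPM. None of these 3 was called.

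The dermis list held 3.15%, 3.65%, 3.64%, 4.75% and 3.58% of counts. WT 41 was the highest column for 16 of its 24 genes, against 33.4% of all genes tested. Col1a1 was called (adjusted p = 2.47e-265, edgeR), at 4780, 6510, 7190, 10730 and 5875 CPM. WT 41 was 2.25-fold above WT 34, and the call was lost without either of them. Col1a2, the other chain of type I collagen, stood at 4938, 6062, 6481, 9324 and 6382 CPM and Col3a1 at 10690, 11170, 11450, 14950 and 12430 CPM, in the same direction and below the fold limit. The libraries of WT 35 differed here too, with a dermis share of 4.34% in the format 1 library and 3.12% in the format 2 library.

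Mfap5, a microfibril protein, was called at 70.7, 76.1, 110, 89.9 and 37.4 CPM, with WT 42 lowest, and not without that column. Crabp1, a retinoic acid binding protein of the dermal papilla and upper dermis, was called at 44.4, 19.1, 25.8, 47.4 and 33.9 CPM, and not without WT 35. The ratio of epidermis to dermis counts ran from 2.54 in WT 41 to 3.12 in WT 42.

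Skeletal muscle transcripts held 2.61%, 3.18%, 2.64%, 1.87% and 2% of counts. WT 35 was the highest column for 22 of 32 genes, against 12.4% of all genes tested. WT 41 was the lowest for 20, against 31.5% of all genes tested. Acta1 stood at 5502, 7632, 6544, 4185 and 4317 CPM and Ckm, the muscle creatine kinase, at 1546, 2016, 1837, 1000 and 1293 CPM. Mylpf, a fast-fibre myosin light chain, stood at 3130, 2920, 2747, 1450 and 2239 CPM. WT 41 was the lowest column in all of these. The stretch before the start of Mylpf holds CAGCTG, the core of the E-box that myogenic factors bind, 51 bases before the start.
Mylpf, chr7:127211358-127211607, plus strand: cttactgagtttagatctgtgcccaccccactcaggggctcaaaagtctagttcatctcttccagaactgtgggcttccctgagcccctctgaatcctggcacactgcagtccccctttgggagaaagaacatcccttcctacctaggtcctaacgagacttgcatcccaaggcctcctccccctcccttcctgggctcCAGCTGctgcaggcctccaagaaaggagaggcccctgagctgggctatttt

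CAGCTG was present in 10 of the 25 muscle genes with a reference sequence (40%), against 12.8% of all genes. Actn3, the actinin of fast fibres, had one of the widest ranges of the list, at 62.4, 76.2, 65.2, 15.2 and 16.8 CPM (adjusted p = 2.65e-133, edgeR). WT 41 and WT 42 were separate from the other columns. The slow-fibre troponins did not share 1 pattern. Tnnt1 stood at 225, 138, 145, 224 and 139 CPM and Tnnc1 at 120, 63.1, 68.4, 118 and 72 CPM, both high in WT 34 and WT 41. Tnni1 stood at 179, 167, 187, 148 and 155 CPM, lowest in WT 41, and was not called. Myh7, the slow myosin heavy chain, which is in none of the lists, stood at 15.2, 6.83, 12.3, 63.9 and 8.06 CPM, with WT 41 far above the others. The embryonic myosin Myh3 was also highest in WT 41, at 1526 CPM against 903 to 1356 CPM, and was not called.

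Many muscle calls turned on WT 35. Its format 2 library held 3.55% of counts in muscle genes and its format 1 library 2.7%. With both libraries as 1 level 7 of the 32 genes were called, without WT 35 5 and without WT 41 11. Acta1 and Myh8 were no longer called in the first case, with log2 ranges of 0.85 and 0.96.

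Fat genes had a median log2 range of 3.30, against 0.52 for all genes tested. They held 0.155%, 0.134%, 0.258%, 0.0809% and 0.0742% of counts, and WT 38 was the highest column for 14 of 15 genes, against 15% of all genes tested. Fabp4, the fatty acid binding protein of adipocytes, stood at 544, 389, 714, 277 and 300 CPM. Adipoq (adiponectin) stood at 81.4, 73.9, 120, 22.1 and 12.4 CPM, and Plin1, the coat protein of lipid droplets, at 45, 58.8, 106, 12.4 and 19.2 CPM. WT 41 and WT 42 were low and WT 38 high in each. Adipoq and Plin1 were called (adjusted p = 9.30e-176 and 8.96e-162, edgeR).

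WT 38 stood apart in genes of brown fat. Ucp1, the uncoupling protein that makes brown fat produce heat, stood at 0.336, 0.316, 37.5, 0.147 and 0.454 CPM. Cidea, a lipid droplet protein of brown adipocytes, stood at 5.96, 6.78, 55.5, 5.86 and 6.5 CPM, and Pck1, a key enzyme of glyceroneogenesis, at 3.51, 1.32, 37.3, 0.44 and 0.857 CPM. Only WT 38 was high, and its 2 libraries agreed within 1.86 times the counting error over all genes. Without WT 38 neither Ucp1 nor Cidea was called, and 8 of 15 fat genes were. Genes outside the list followed. Gpd1, which makes glycerol phosphate for lipid synthesis, stood at 78.2, 80.4, 394, 23.1 and 27 CPM. Thrsp, a lipogenic regulator, stood at 27.1, 19.6, 93.8, 10.3 and 10.3 CPM, and Mrap, an accessory protein of melanocortin receptors in adipocytes, at 6.48, 5.11, 13.5, 1.58 and 1.66 CPM.

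Car3, the carbonic anhydrase of fat and slow muscle, stood at 396, 311, 819, 185 and 89.5 CPM. Retn (resistin) and Cfd (adipsin), which are secreted by adipocytes, stood at 9.7, 5.51, 13.6, 4.95 and 0.756 CPM and at 20.4, 12.6, 52.9, 9.82 and 2.92 CPM. In all of these WT 42 was the lowest column. Cidec, which fuses lipid droplets, stood at 15.1, 13.5, 39.4, 2.86 and 2.17 CPM.

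Red blood cell transcripts held 0.175%, 0.269%, 0.453%, 0.517% and 0.367% of counts, a 2.95-fold range. WT 34 was lowest for 12 of 18 genes and WT 41 highest for 13, against 25.4% and 33.4% of all genes tested. The adult beta-globin Hbb-bs stood at 1007, 1531, 2640, 3085 and 2234 CPM and made up 59.3% of the list. Hba-a1, an alpha-globin, stood at 172, 313, 521, 700 and 377 CPM, and Alas2, the first enzyme of heme synthesis in red cells, at 36.5, 70.5, 132, 140 and 83.9 CPM. The columns kept the order WT 34, 35, 42, 38 and 41 from low to high in all of these. The embryonic globins Hbb-y and Hba-x were at or below 3.04 CPM. Slc4a1, the anion exchanger of the red cell membrane, stood at 6.77, 11.4, 14, 22.6 and 19 CPM. Without WT 41, 12 of 18 genes were called. The stretch before Hbb-bs, the globin with the most counts, holds AGATAA 210 bases before the start, a match to the motif of the GATA factors of red cell precursors.
Hbb-bs, chr7:103827929-103828178, minus strand: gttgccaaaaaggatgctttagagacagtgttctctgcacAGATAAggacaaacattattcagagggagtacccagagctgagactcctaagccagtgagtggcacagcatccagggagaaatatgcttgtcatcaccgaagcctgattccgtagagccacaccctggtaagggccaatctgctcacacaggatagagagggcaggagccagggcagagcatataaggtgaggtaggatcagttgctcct

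AGATAA was present in 33.3% of the 15 red blood cell genes with a reference sequence, against 10.3% of all genes.

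Liver and yolk sac transcripts were traces, at 0.00044% to 0.0041% of counts. Alb (albumin) stood at 2.21, 19.2, 3.74, 12.5 and 12.2 CPM. The libraries of WT 35 held 2.37 CPM (format 1) and 32.4 CPM (format 2). All 8 tested liver genes were highest in WT 35 and lowest in WT 34, against 12.4% and 25.4% of all genes tested. With both libraries as 1 level none of the 8 was called by edgeR, and with separate levels edgeR called 8 and DESeq2 called 7. Without WT 35 edgeR called 7, and without its format 1 library 8.

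Among the immune lists (mast cell, macrophage, neutrophil and T cell), mast cell and macrophage genes held the largest shares of counts. Other immune cells had no list, and a share depends on which genes are listed. Mast cell genes held 0.15% to 0.224% of counts. Cpa3, a mast cell carboxypeptidase, stood at 794, 795, 588, 489 and 826 CPM, and the 2 libraries of WT 35 held 1113 and 554 CPM. Mcpt4, a chymase of connective tissue mast cells, stood at 287, 246, 157, 106 and 242 CPM. Both were called and lowest in WT 41. The call of Cpa3 rested on WT 35 as 2 levels. With both libraries as 1 level, or without WT 35, its log2 range was 0.78 or 0.73. In both cases 3 of 8 mast cell genes were called in place of 5, against 11.5% of all genes in the main test. Tpsb2, a tryptase, was even, at 260 to 294 CPM.

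Macrophage genes held 0.0684%, 0.0672%, 0.0702%, 0.0737% and 0.0466% of counts. WT 42 was the lowest column for 14 of 15 genes, against 18.3% of all genes tested. Mrc1, the mannose receptor, stood at 128, 130, 134, 161 and 93.2 CPM and Csf1r, the receptor for the macrophage growth factor, at 42.2, 48.5, 55.1, 63.1 and 35.7 CPM. Only Cd68, Cd163 and Pf4 of the 15 were called, against 11.5% of all genes tested. Without WT 41 or without WT 42 there was 1 call in place of 3. Neutrophil and T cell genes were near the limit of these libraries, at 0.00111% and 0.00102% of counts on average.

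Interferon response genes were low, with Bst2 at 17.3 to 24.7 CPM, and 9 of 12 were called. Of all genes, 31.9% were called at 1 to 5 CPM and 9.77% at 5 to 20 CPM. WT 34 was highest for 10 of the 12 interferon genes and WT 38 lowest for 9, against 22.4% and 14.1% of all genes tested. Ifit1, an antiviral RNA sensor, stood at 6.48, 3.24, 1.71, 4.21 and 3.63 CPM, and Isg15, a ubiquitin-like modifier, at 8.55, 5.94, 4.24, 6.41 and 6.96 CPM. Without WT 38, 4 of 12 were called, without WT 34 5.

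Of the vessel genes, 3 of 17 for vessel lining and 3 of 11 for vessel wall were called, against 11.5% of all genes tested. Pecam1, an adhesion molecule of vessel lining, stood at 92.5 to 131 CPM and Acta2, the smooth muscle actin, at 147 to 231 CPM. Dct, a melanin enzyme, stood at 123 to 156 CPM. None of 9 melanocyte genes was called in the main edgeR fit (7 passed the adjusted p without the fold limit, and DESeq2 called 1). Scaled by total counts alone, edgeR called 2 of the 9, and with a mean of at least 50 counts required 1 of 7. Among the called vessel genes, Flt1, a receptor for vascular growth factor, was at 44 CPM in WT 41 and at 21 to 23.5 CPM elsewhere. Notch3, a receptor of vessel wall cells, was at 208 CPM in WT 41 and at 88 to 125 CPM elsewhere. Without WT 41 none of the 17 vessel lining genes was called by edgeR. The call of Notch3 was lost without WT 34 or without WT 41. The nerve list held an even 0.0103% to 0.0109% of counts, yet 5 of its 10 tested genes were called, all at low level, with a median log2 range of 0.87. Of all genes tested 11.5% were called, and 31.9% of those at 1 to 5 CPM. Tubb3, a neuronal tubulin, stood at 4.08, 3.24, 4.34, 1.28 and 3.28 CPM. Without WT 41, 1 of the 10 was called.

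None of 15 cell cycle genes was called by edgeR or DESeq2, although all 15 passed the adjusted p without the fold limit. Their share was 0.144% in WT 34 and 0.118% to 0.122% in the other columns. WT 34 was the highest column for 11 of the 15, against 22.4% of all genes tested. Top2a, the topoisomerase of dividing cells, stood at 248, 234, 235, 272 and 244 CPM. Among sterol synthesis genes, Cyp51 was called at 146, 134, 136, 76.8 and 177 CPM, lowest in WT 41 and highest in WT 42, and the call was lost without either. The mitochondrial genome held 1.41%, 1.83%, 1.65%, 1.11% and 1.46% of counts. These came from 7 of its 13 listed genes, while mt-Co2, mt-Co3, mt-Atp6, mt-Atp8 and mt-Nd4l had 0 counts and mt-Nd3 at most 0.048 CPM, although every cell uses these genes. The share and the ranks of single mitochondrial genes therefore cover only what was counted. The list included mt-Nd1 at 2576, 3218, 2981, 1657 and 2506 CPM (adjusted p = 2.35e-233, edgeR). This call was lost without WT 35, without WT 41 or with WT 35 as 1 level.

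The Hox genes record position along the body. Their summed share was 0.0325% to 0.0351% of counts. Hoxd8 led with 63.5, 74.5, 69.9, 64.7 and 78.6 CPM, followed by Hoxa7 (31.4 ± 2.36 CPM) and Hoxc8 (27.5 ± 2.45 CPM). Of 28 tested Hox genes 5 (17.9%) were called, against 11.5% of all genes tested and 31.9% of those at 1 to 5 CPM. All 5 had a mean of at most 7.56 CPM. WT 41 was the highest column for 18 of the 28, against 33.4% of all genes tested. With WT 35 as 1 level 3 were called, and DESeq2 called 2. Among immediate early genes, Jun stood at 113 to 133 CPM, and Egr1 was called at 26.8, 37.8, 31.3, 15.9 and 17.1 CPM, and not without WT 35.

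The 25 called genes with the widest range, at a mean of 5 CPM or more, held 5 sex-linked genes, 9 genes of the fat list and 1 gene each of the liver, spinous and hair follicle lists. Xist stood at 227, 342 and 752 CPM in WT 34, 38 and 41 and at 0.202 CPM in WT 42, in which Ddx3y, a Y-linked helicase, reached 165 CPM. Both depend on the sex of the animal, which the labels do not give. Of genes outside the lists, 3 set WT 41 apart. Tnfrsf9, a costimulatory receptor of the tumour necrosis factor family, stood at 2.26, 1.9, 2.18, 24.4 and 2.67 CPM. Ctsj, a cathepsin known from placenta, stood at 3.31, 3.42, 3.1, 35.1 and 11 CPM, and Myh7 is given above. Slc15a2, a peptide transporter, stood at 5, 13.5, 3.74, 17.4 and 3.08 CPM, and the libraries of WT 35 held 26.7 and 3.23 CPM. Mt4, a metallothionein of squamous epithelium, stood at 10.1, 4.79, 5.32, 1.25 and 4.08 CPM.

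**Figure D4:**
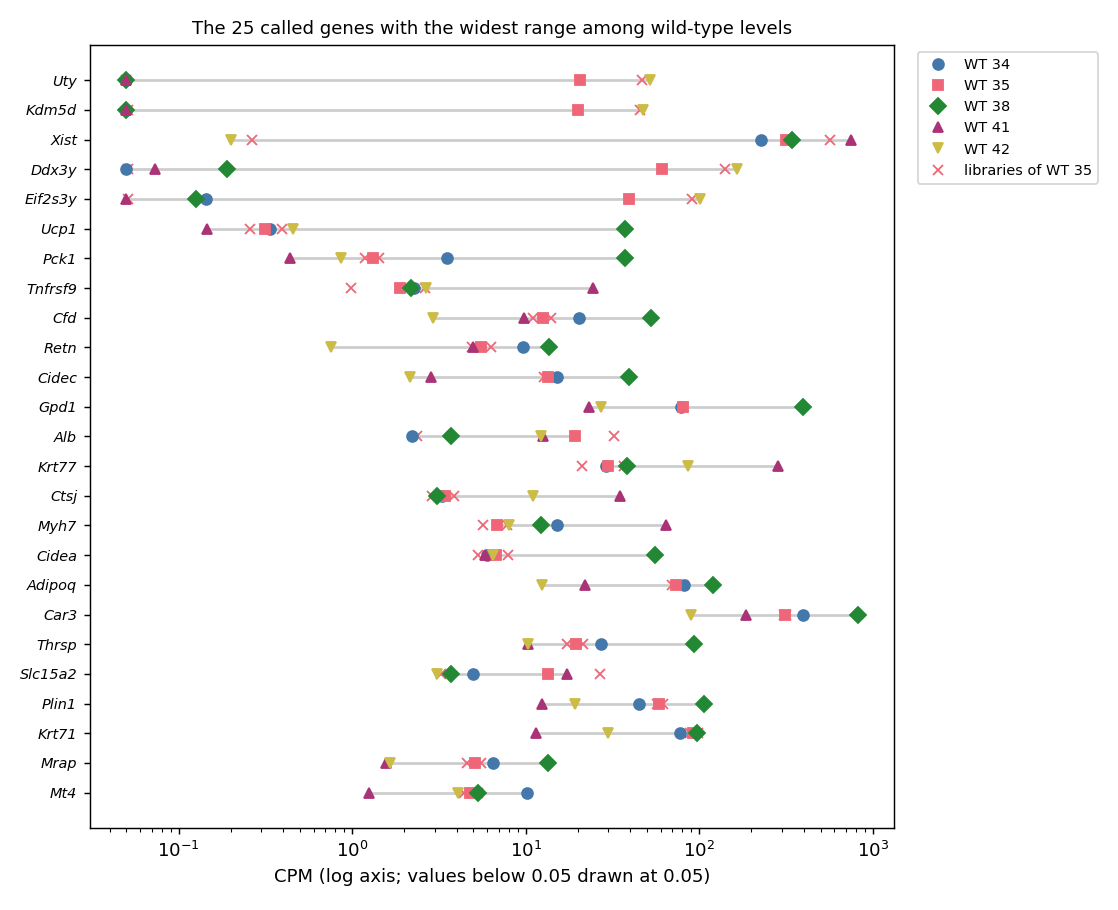
CPM (log axis, values under 0.05 drawn at 0.05) of the 25 called genes with the widest range, 1 point for each WT column and crosses for the 2 libraries of WT 35. Ucp1 and Cidea are high in WT 38 only (37.5 and 55.5 CPM), and Tnfrsf9 and Krt77 are highest in WT 41 (24.4 and 283 CPM).

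At the other end stood genes whose spread between the 5 summed columns was close to counting error. The spread beyond counting error, as a coefficient of variation (CV), had a median of 16% for genes of 1 to 5 CPM, 11.7% for 5 to 20 CPM, 10.2% for 20 to 100 CPM and 10.5% above. Among genes of 100 CPM or more it was 0 for Sh3bp4, Riok3, Slmap and Cops7a. Riok3, an atypical kinase, stood at 152, 151, 149, 149 and 152 CPM, and Sh3bp4, an endocytic adaptor, at 108, 111, 109, 112 and 110 CPM. Wwtr1 (TAZ, a transcriptional partner in the Hippo pathway) stood at 158, 154, 154, 158 and 152 CPM, with an excess CV of 0.608%. Stx5a, Ccdc50, Pygb, Snx1 and Stk11 (a kinase that regulates AMPK) completed the 10 most even genes, with 1.22% or less. This evenness is that of summed columns, in which the 2 libraries of WT 35 are added together. With those libraries as separate levels, Pygb and Stk11 passed the adjusted p limit of 0.1 (adjusted p = 0.0202 and 0.0261, edgeR). Their log2 ranges were 0.194 and 0.162, so neither was called. The rest of the 10 did not pass that limit.

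**Figure D5:**
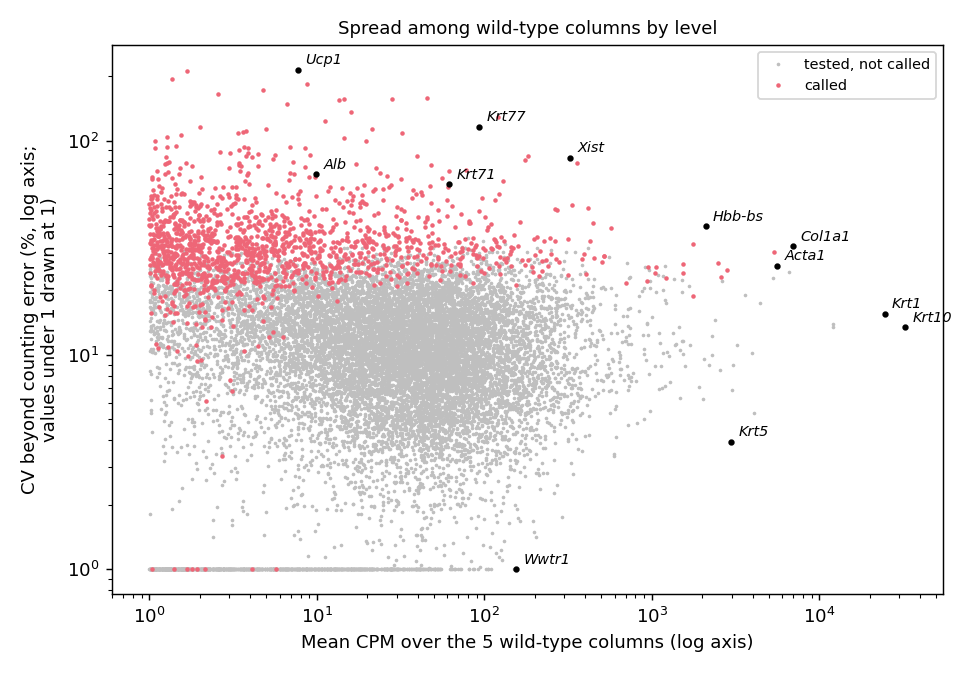
Spread among the 5 WT columns beyond counting error (CV in %, log axis, values under 1 drawn at 1) against mean CPM (log axis) for tested genes of 1 CPM or more, called genes in red. Krt5 lies low among abundant genes, Wwtr1 lies at the floor with 0.608%, and Ucp1 and Krt77 lie at the top.

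The WT shares were set beside those of the other genotypes, with exact two-sided permutation tests of 5 against 5 columns, whose smallest p is 0.00794. Of 54 tests, 27 lists against HET and KO with the same WT columns in both, none reached an adjusted p of 0.1, and the smallest was 0.429. A single list at the smallest p would also have had an adjusted p of 0.429, so the design could not show a difference in 1 list alone. At an unadjusted p under 0.05 stood 4 of them. The Hox share was 0.0336% in WT, 0.0305% in HET and 0.0273% in KO (exact p = 0.00794 and 0.0397). The sterol synthesis share was 0.142% in WT and 0.169% in KO (exact p = 0.0159), and the mitochondrial share 1.49% in WT and 2.07% in HET (exact p = 0.0476). None of these passed the correction. Variation of the kind seen among WT columns was present in the other genotypes: Ucp1 reached 376 CPM in a HET column and 1469 CPM in a KO column, and its lowest values there were 0.384 and 0.304 CPM. Krt71 ran from 13.8 to 163 CPM in HET and from 18.53 to 109.5 CPM in KO, around the WT range of 11.5 to 96.6 CPM.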

How the data were processed

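RNA from skin was measured in 24 libraries, 8 per genotype. The authors deposited raw counts of reads per gene symbol, 54087 symbols by 24 libraries. The submitters' processing notes name STAR, HTSeq and the build hg19, a human build, although the symbols are those of mouse. Versions, the gene annotation and the use of strand in counting are not given in the sources used here. A symbol that overlaps another gene, or has near copies, can therefore hold reads of its neighbour.

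Libraries were grouped by the genotype label and summed by title number. The members and gene lists were chosen with earlier results of these data known. CPM were scaled by TMM over the summed columns. Levels per length used the union of exons in GENCODE vM21 (GRCm38), which matched 28499 symbols directly and 254 by synonym, together 98.36% of counts. Single libraries held 9654357 to 19983730 counts and the summed WT columns 19462843 to 33681853. At the depth of the summed columns the median counting CV was 13.4% for genes at 1 to 5 CPM. It was 1.55% at 100 CPM or more. The counting CV of single libraries was not computed. Binomial intervals (Clopper-Pearson, 95%) cover counting error only.

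Differences among the 6 WT levels were tested in edgeR 4.0.16 (R 4.3.3, filterByExpr, robust quasi-likelihood F test, Benjamini-Hochberg) over all 24 libraries with title format as a term and 7 residual degrees of freedom. The error is that between libraries of the same number, which may be technical, so p-values do not measure spread between animals. On simulated data with 200 genes changed 4-fold, this test recovered 200 with 5 false calls among 16013 genes. The 4-fold change lay well above the fold limit of a call, so recovery of changes near that limit was not tested. The simulation therefore does not give the error rate of the calls in the real libraries. DESeq2 1.42.0, other scalings, filters and left-out columns were alternatives.

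Named genes were the 20 with the largest share of counts, the 10 with the largest level per length, the 25 called genes with the widest range at a mean of 5 CPM or more, the 10 with the least spread beyond counting error at 100 CPM or more, and, from each list, called members and the 3 most abundant. A few other list members (such as Myh3 and Ivl) and the sequences shown were chosen after their values were seen.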

Additional observations from a re-analysis of the deposited data

Results flagged for a closer look

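Among 144 sets of 5 WT columns (list shares and named genes), 15 had a highest or lowest column set off by a gap of more than 0.71 of the whole range. Chance gives about 1 in 20, or 7.2, for sets that are independent and not chosen. These are neither, since many genes were named for their wide range over the same columns, so the number of such sets is only a description. WT 38 was set off as highest in 6 of them and WT 41 in 5.

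In WT 38 the gap was 0.992 of the range for Ucp1, 0.982 for Cidea, 0.917 for Pck1, 0.845 for Gpd1 and 0.799 for Thrsp, all genes of fat metabolism. It was 0.871 for Krt6b, a stress keratin at 8.36 CPM in WT 38 and 2.93 to 3.63 CPM elsewhere.

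In WT 41 the gap was 0.965 for Tnfrsf9, 0.854 for Myh7, 0.773 for Krt77 and 0.752 for Ctsj. It was 0.727 for Col9a2, a cartilage collagen.

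WT 42 was set off as lowest in the share of the macrophage list, with a gap of 0.76, and as highest for Sqle, an enzyme of sterol synthesis at 182 CPM against 122 to 129 CPM elsewhere, with 0.879. WT 34 was set off as highest in the share of the cell cycle list (0.849) and as lowest for Cops7a, one of the most even genes (0.754).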

How the results depend on the processing

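The 1845 genes called as differing among WT levels became 954 without WT 41, and 954 to 1724 over the 5 fits that each left out 1 column. With a mean of at least 50 counts required, 865 were called, with DESeq2 1060 and with no limit on fold 12102. The other 9 planned settings and the fit without the format 1 library of WT 35, an alternative chosen after seeing the data, gave 1474 to 1961 calls. Per length, the share of counts was 14.7% for epidermis, 1.49% for dermis, 3.62% for muscle and 1.4% for red blood cells, and the 20 highest genes held 25.1%. Leaving out 1 column in turn gave 10.2% to 10.8% for epidermis, 3.51% to 3.9% for dermis, 2.28% to 2.61% for muscle, 0.111% to 0.157% for fat, 0.316% to 0.401% for red blood cells and 14.8% to 15.3% for the 20 genes. No list reached an adjusted p of 0.1 against HET or KO in the permutation tests, with any column left out, which the design fixed for any single list. Of the values for single genes under alternatives, 3379 kept their side of the threshold, 223 lost and 58 gained a call. A range has no direction to reverse. No paired analysis was possible because no title number is shared between genotypes. Depth limits the neutrophil and T cell lists most, and the cause of these changes was not tested.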
